A study of Mus musculus with 18 samples.

Results

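The genes described here are 10 mouse genes whose products hydroxylate procollagen or help it fold in the endoplasmic reticulum: the lysyl hydroxylases Plod1, Plod2 and Plod3, the prolyl 4-hydroxylase alpha subunits P4ha1, P4ha2 and P4ha3, the prolyl 3-hydroxylase P3h1 with its partner Crtap, the collagen chaperone Serpinh1 and the prolyl isomerase Fkbp10. They are grouped by their known function, but were chosen with earlier results of these data known, so that their counts are a description. All 10 were found among the 49184 genes to which the transcripts could be assigned. All 10 passed the filter on low counts in every comparison.

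Collagen chains are modified while they are being made. Prolyl 4-hydroxylases act on proline residues and so let the triple helix hold at body temperature, and lysyl hydroxylases make the hydroxylysine that carries sugars and the more stable cross-links of the mature fibre. P3h1, Crtap and cyclophilin B form a complex that acts on a proline near the end of the type I and type II collagen helix, while Hsp47 (the product of Serpinh1) and FKBP65 (the product of Fkbp10) attend the folding chains. In cartilage the main client is type II collagen, and in scar and other fibrous tissue it is type I, III and V collagen.

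The libraries are total RNA from femoral condyle cartilage caps of 12-week-old male C57Bl/6J mice, the same strain in every group. The anterior cruciate ligament of the right knee was ruptured by a single load of 12 N, and injured and contralateral cartilage was taken at day 1 or day 7 (n = 3 libraries in each of the 4 groups). Cartilage of naive mice, labelled with day 7, made up 6 libraries. The methods pooled 2 mice per library at day 1 and 4 mice at day 7, and divided 6 naive mice so that left and right knees of the same animals gave separate libraries, whereas the series text gives 4 mice per sample. The series text also describes the caps as medial, which the extraction protocol does not. The naive spread is therefore in part one between knees of the same mice, and p-values that take the 6 naive libraries as separate replicates may be too small. The labels pair no injured with any contralateral library.

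Total estimated counts per library ran from 16074762 to 41794005. Among the 10 genes, the estimated counts of one library were at least 225 for every gene except P4ha3, which had 18 to 62 in the day 7 contralateral libraries and 683 to 1224 in the day 7 injured libraries. Day 7 contralateral replicate 1 stood apart from the rest: its 10 most abundant genes held 42.5% of its counts, against 16.6% to 29.8% in the 17 others. Results that use the day 7 contralateral group are given with and without that replicate where that changes them. Usage differences of single transcripts are given with it only. The study's methods also left out a library for its low mapping rate, and the sources used here do not say which it was or whether it is among those analysed. All 18 libraries were kept here.

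At day 7 all 10 genes were higher in injured cartilage than in any other group. All 10 passed the test against naive cartilage (edgeR quasi-likelihood test, Benjamini-Hochberg adjusted p of at most 0.05 and at least 1.5-fold), where 10.4% of all 21129 genes tested were called higher. All 10 also passed against the day 7 contralateral knee (9.33% of all genes called higher) and against day 1 injured cartilage (9.04%). These 3 comparisons share the day 7 injured libraries and so are not independent of each other. Log2 fold changes against naive cartilage ran from 1.07 for Plod3 to 3.82 for P4ha3, with a median of 1.77, whereas the median over all genes tested was -0.04.

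The day 7 injured libraries did not overlap the others for any of the 10 genes. In CPM (counts scaled to a common library size with TMM factors over 18 libraries), the lowest day 7 injured library was above the highest naive library for all 10 genes (17.3% of all genes), and above the highest of all 15 other libraries for all 10 (11.9% of all genes). The gap to the nearest other library was smallest for Plod3, at 1.52-fold, and largest for P4ha3, at 4.60-fold.

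**Figure D1:**
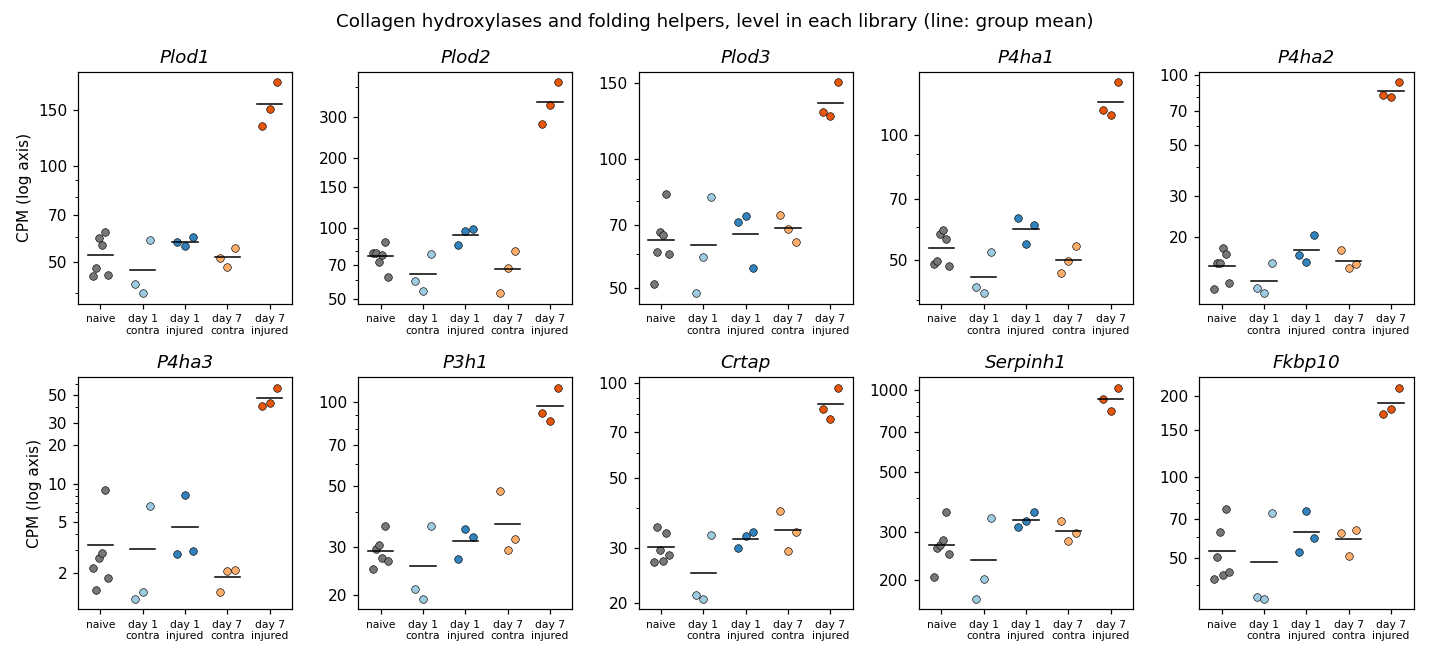
Level of each gene (CPM, log axis) in each of the 18 libraries by group, with 1 point per library and a line at the group mean. For every gene the 3 day 7 injured libraries lie above all 15 others, with the smallest gap for Plod3 (1.52-fold).

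All 3 lysyl hydroxylases rose, and the log2 fold change was largest for Plod2. Plod2 (chr9:92542223-92608428, GRCm38, plus strand) encodes lysyl hydroxylase 2, the enzyme of the collagen telopeptides whose products give pyridinoline-type cross-links. Its level was 278, 338 and 420 CPM in the day 7 injured libraries, 52.8, 67.9 and 80.0 in the day 7 contralateral libraries and 62.1 to 87.2 (median 77.6) in naive cartilage. No injured library came near the other knee or the naive group. The rise was 2.21 ± 0.13 on the log2 scale (SE, n = 3 against 6; edgeR adjusted p = 1.84e-08), or 4.61-fold, against naive cartilage and 2.36 ± 0.18 against the contralateral knee (adjusted p = 1.19e-07).

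Plod1 (chr4:147909753-147936767, minus strand) encodes lysyl hydroxylase 1, which acts on helical lysines. It stood at 133, 151 and 182 CPM in day 7 injured cartilage, against 48.4 to 55.5 in the other knee and 45.2 to 61.9 (median 52.2) in naive cartilage. The 3 injured libraries were again above every other library, and the log2 fold change against naive was 1.58 ± 0.13 (edgeR adjusted p = 5.22e-07). Plod3 (chr5:136987019-136996648, plus strand) encodes lysyl hydroxylase 3, which also transfers glucose to the galactose carried by hydroxylysine. It had the smallest change of the 10, from 51.3 to 82.8 CPM (median 63.7) in naive cartilage and 64.1 to 74.0 in the other knee to 129, 126 and 151 CPM in injured cartilage. Its log2 fold change was 1.07 ± 0.16 against naive (edgeR adjusted p = 1.03e-04) and 0.97 ± 0.18 against the contralateral knee (adjusted p = 8.26e-04). Plod3 overlaps the antisense gene Znhit1 at one end, to which 6398 counts over all libraries were assigned against 34390 for Plod3. The strand setting of the quantification was not given in the sources used here.

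The make-up of the family differed as well; shares are given as a description, with no test. In TPM (Kallisto's abundance, which accounts for length), Plod2 held 32.8% to 39.2% of the summed level of the 3 lysyl hydroxylases in naive cartilage and 47.8% to 51.2% in day 7 injured cartilage. Plod3 held 38.8% to 41.2% in naive and 24.1% to 30.2% in day 7 injured cartilage, and Plod1 had a mean share of 24.2% in naive and 23.7% in injured cartilage. The day 7 injured shares of Plod2 lay above those of all other groups, whose highest was 42.7% in a day 1 injured library. For Plod3 a day 1 injured library, at 29.4%, lay inside the day 7 injured range.

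All 3 prolyl 4-hydroxylase alpha subunits rose, and the least abundant had the largest log2 fold change. P4ha3 (chr7:100285520-100319699, plus strand), the third catalytic subunit, stood at 41.0, 43.3 and 56.6 CPM in day 7 injured cartilage, at 1.40, 2.05 and 2.10 in the other knee, and between 1.46 and 8.91 (median 2.40) in naive cartilage. Its log2 fold change was 3.82 ± 0.55 against naive (14.2-fold, edgeR adjusted p = 8.62e-05), the 30th largest of the 21129 genes tested. Without naive replicate 5, its highest naive library, the log2 fold change was 4.42 (adjusted p = 8.43e-06). Against the contralateral knee the log2 fold change was 4.63 ± 0.72 (adjusted p = 1.73e-04). The spread of the P4ha3 level among libraries outside the day 7 injured group was wide: naive replicate 5, day 1 injured replicate 2 and day 1 contralateral replicate 3 had 8.91, 8.07 and 6.61 CPM, and each of the 12 others had under 3.

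P4ha2 (chr11:54100095-54131665, plus strand) encodes the second alpha subunit, described as a main form in chondrocytes. It rose from 11.9 to 17.9 CPM (median 15.5) in naive cartilage and 14.7 to 17.5 in the other knee to 81.7, 80.4 and 92.7 CPM. The log2 fold change was 2.51 ± 0.13 against naive (5.70-fold, edgeR adjusted p = 3.67e-09), the smallest adjusted p of the 10 genes, and 2.43 ± 0.16 against the contralateral knee (adjusted p = 2.57e-08). P4ha1 (chr10:59323296-59373304, plus strand) encodes the widely expressed alpha subunit. Its level was 115, 112 and 134 CPM in day 7 injured cartilage, against 46.4 to 54.0 in the other knee and 48.3 to 59.1 (median 52.8) in naive cartilage. That is a log2 fold change of 1.20 ± 0.09 against naive (edgeR adjusted p = 2.60e-07).

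P4ha1 was the main alpha subunit in naive cartilage, with 56.2% to 65.5% of the summed TPM of the 3 genes, and no longer in day 7 injured cartilage, with 35.5% to 39.3%. P4ha2 held 41.0% to 44.2% there (30.6% to 36.2% in naive) and P4ha3 held 19.7% to 22.1% (2.50% to 13.2% in naive). The ranges of the day 7 injured group did not meet those of any other group for these 3 shares.

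**Figure D2:**
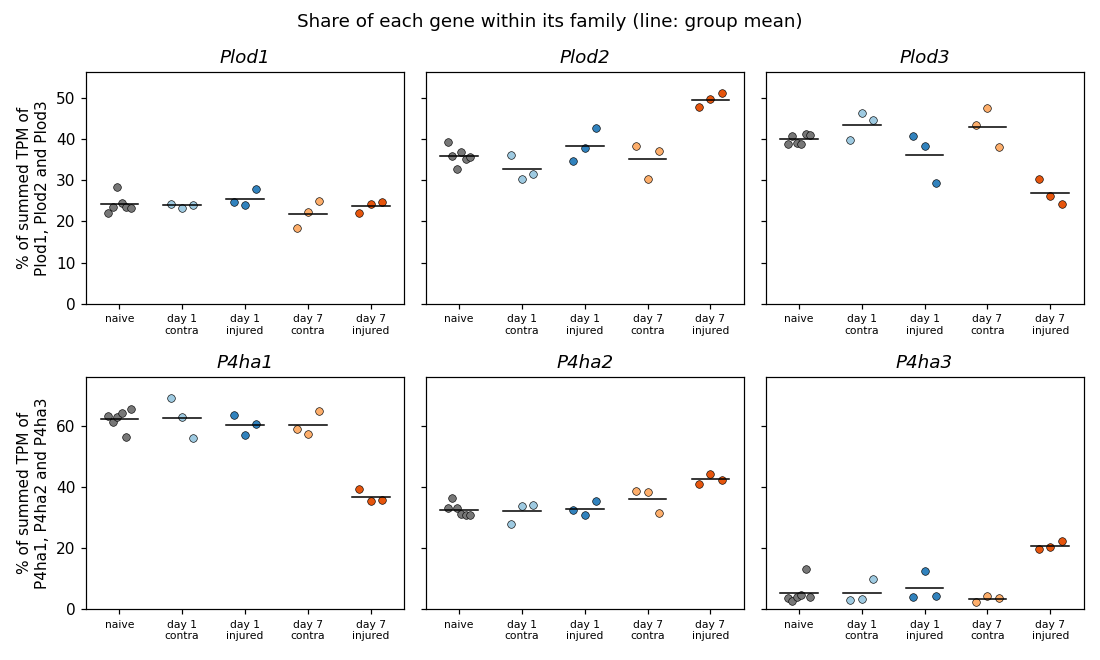
Share of each gene in the summed TPM of its family (percent, linear axis from 0), with 1 point per library by group and a line at the group mean. In day 7 injured libraries Plod2 rises to 47.8% to 51.2% and P4ha3 to 19.7% to 22.1%, while P4ha1 falls to 35.5% to 39.3%.

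P4hb, which encodes the beta subunit shared by the prolyl 4-hydroxylases and also protein disulfide isomerase, was called higher too. It stood at 690, 695 and 734 CPM in day 7 injured cartilage and at 284 to 452 in naive cartilage, with a log2 fold change of 0.97 ± 0.15 (edgeR adjusted p = 1.55e-04).

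The genes of the prolyl 3-hydroxylase complex all rose. P3h1 (chr4:119232915-119248975, plus strand) had 91.4, 85.9 and 113 CPM in day 7 injured cartilage, 29.1 to 47.8 in the other knee and 24.9 to 35.6 (median 28.4) in naive cartilage. Crtap (chr9:114375134-114390675, minus strand), which encodes the cartilage-associated protein that stabilises P3h1, had 83.1, 77.1 and 97.0 CPM against 29.3 to 39.4 and 26.9 to 34.9 (median 29.0). For both genes the highest contralateral library was replicate 1, the library that stands apart, and the lowest injured library was 1.80-fold above it for P3h1 and 1.96-fold for Crtap. The log2 fold changes against naive were 1.75 ± 0.16 for P3h1 (edgeR adjusted p = 1.45e-06) and 1.53 ± 0.13 for Crtap (adjusted p = 6.85e-07). Ppib, which encodes cyclophilin B, the other member of the complex, stood at 147 to 180 CPM in injured and 83.3 to 110 CPM in naive cartilage, a log2 fold change of 0.76 ± 0.10 (adjusted p = 2.35e-05). Crtap overlaps a non-coding gene on the other strand, 4930520O04Rik, to which 1657 counts were assigned over all libraries against 16961 for Crtap.

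Serpinh1 and Fkbp10 were the most abundant and the third most abundant of the 10 genes in day 7 injured cartilage by mean TPM. The range of Fkbp10 overlapped those of Plod2 before it and Crtap after it. Serpinh1 (chr7:99345376-99353239, minus strand) had 923, 838 and 1021 CPM in day 7 injured cartilage, 278 to 330 in the other knee and 204 to 356 (median 265) in naive cartilage. Its log2 fold change was 1.80 ± 0.18 against naive (edgeR adjusted p = 2.91e-06) and 1.62 ± 0.21 against the contralateral knee (adjusted p = 3.42e-05). Fkbp10 (chr11:100415697-100424824, plus strand), whose product works beside lysyl hydroxylase 2, had 172, 179 and 214 CPM against 50.9 to 63.9 and 42.0 to 76.0 (median 47.7). Its log2 fold change against naive was 1.84 ± 0.23 (edgeR adjusted p = 2.09e-05). Fkbp10 overlaps the antisense gene Nt5c3b at its end, with 3509 counts assigned to Nt5c3b over all libraries and 33460 to Fkbp10.

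Compared per length, Serpinh1 was the most abundant of the 10 in every group, at 69.3 ± 16.2 TPM in naive (SD, n = 6) and 193 ± 37.8 TPM in day 7 injured cartilage (SD, n = 3), and its range met that of no other member. In naive cartilage the next levels were Plod3 at 15.2 TPM, Plod2 at 13.7, Fkbp10 at 12.5 and Crtap at 11.3, followed by Plod1 and P4ha1 at 9.28 and 9.26. P3h1 at 5.18 and P4ha2 at 4.83 came after these, and each neighbour in this order from Plod3 to P4ha2 overlapped the next. P4ha3 was last at 0.861 TPM, below the range of P4ha2. In day 7 injured cartilage Plod2 was second at 46.2 TPM and Plod3 stood at 24.4, while P4ha2, at 20.2, stood before P4ha1, at 17.4. From Plod2 on, the range of each gene overlapped that of the next in the order. Summed over the 10 genes, the level was 337 to 512 TPM in day 7 injured, 120 to 205 TPM in naive and 211 to 315 TPM in day 1 injured cartilage. TPM are not rescaled between libraries as CPM are, and in CPM the day 1 injured and naive ranges overlapped for all 10 genes.

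At day 1 the difference between knees was small. Levels in day 1 injured cartilage were 84.4 to 99.0 CPM for Plod2, 54.5 to 63.2 for P4ha1, 15.6 to 20.3 for P4ha2 and 314 to 355 for Serpinh1, against 54.1 to 77.9, 41.5 to 52.1, 11.4 to 15.4 and 171 to 337 in the day 1 contralateral knee. The knees did not overlap for Plod2, P4ha1 and P4ha2, with the smallest gap for P4ha2, and overlapped for Serpinh1 and the 6 genes not listed here. Injured libraries were thus all above contralateral ones for 3 of the 10 genes, against 5.09% of all genes. All 10 log2 fold changes between the day 1 knees were positive (10506 of all 21129 genes), from 0.08 for Plod3 to 0.55 for Plod2, and 5 had an unadjusted p under 0.05 (edgeR). None was called (0.0% of all genes called higher), the lowest edgeR adjusted p among the 10 being 0.755, and DESeq2 and limma-voom called none of the 10 either. No gene at all was called in this comparison by edgeR, with 1383 of 21129 at an unadjusted p under 0.05. Markers of several cell types were also measured: 14 of 14 chondrocyte markers (median 0.30), 7 of 8 fibroblast (0.37), 7 of 8 osteoblast (0.47), 5 of 5 osteoclast (0.50), 5 of 5 adipocyte (0.50), 6 of 6 skeletal muscle (0.25) and 5 of 6 endothelial markers (0.12) had positive log2 fold changes between the day 1 knees. All 6 erythroid (median -0.40), all 7 myeloid (-0.23) and 7 of 8 macrophage markers (-0.12) had negative ones. None of these markers was called by edgeR. At an unadjusted p under 0.05 were 5 osteoblast, 5 osteoclast, 2 erythroid, 1 fibroblast and 1 chondrocyte marker. The part of these cells in the result was not tested. The 11 fibril-forming collagen chains were all positive as well (median 0.61, with 7 at an unadjusted p under 0.05), where the median of the 10 hydroxylase and helper genes was 0.37.

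Against naive cartilage, day 1 injured cartilage had log2 fold changes of 0.05 to 0.46 for the 10 genes and none was called (0.0% of all genes), with 1 at an unadjusted p under 0.05, Plod2. In the contralateral knee against naive cartilage 0 of the 10 were called by edgeR at day 1 (0.0% of all genes) and 0 at day 7 (0.0%). At day 1 all 10 log2 fold changes were negative, from -0.27 for Crtap to -0.03 for Plod3 (median -0.18), while 10483 of all 21129 genes were positive. The day 1 contralateral libraries also enter the comparison of the day 1 knees. Several marker lists were on the same side. Positive were 0 of 14 chondrocyte (median -0.37), 0 of 5 adipocyte (-0.46) and 0 of 5 osteoclast markers (-0.29). So were 1 of 8 fibroblast (-0.24) and 1 of 8 osteoblast markers (-0.23), but 5 of 6 erythroid markers (0.04). Of 11 fibril-forming collagen chains 0 were positive (median -0.45), with 6 at an unadjusted p under 0.05 (edgeR). The part of these cells was not tested. At day 7 the log2 fold changes ran from -0.82 for P4ha3 to 0.32 for P3h1. Without day 7 contralateral replicate 1 they ran from -0.70 for P4ha3 to 0.11 for Fkbp10, with P3h1 at 0.07. DESeq2 and limma-voom called none of the 10 in these comparisons. At an unadjusted p under 0.05 there was 1 gene of the 10 at day 1 (P4ha1, log2 fold change -0.22) and none at day 7. Between the contralateral knees of the 2 days none of the 10 was called by edgeR (0.0141% of all genes called higher), and P3h1 and Crtap had unadjusted p-values under 0.05, with log2 fold changes of 0.50 and 0.45. These rested in part on day 7 contralateral replicate 1, without which they were 0.25 and 0.33 (edgeR adjusted p = 0.873 and 0.824). With all libraries, 5 of 5 osteoclast (median 0.94), 5 of 5 adipocyte (0.79) and 11 of 14 chondrocyte markers (0.60) were positive. So were 7 of 8 osteoblast (0.60), 7 of 8 fibroblast (0.28), 7 of 8 macrophage (0.14) and 6 of 7 myeloid markers (0.22). Of 6 erythroid and 6 endothelial markers, 3 (0.09) and 2 (-0.05) were positive. In day 7 contralateral replicates 1, 2 and 3 the summed osteoclast level was 108, 571 and 435 TPM. The osteoblast level was 161, 856 and 836 TPM. At an unadjusted p under 0.05 (edgeR) were 5 osteoclast, 8 chondrocyte, 5 osteoblast, 2 macrophage, 2 myeloid and 1 fibroblast marker. All 11 collagen chains were positive (median 0.97), with 8 under 0.05, and 1 of 6 muscle markers was (-0.50). None of these was called, and their part was not tested.

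The difference between knees was larger at day 7 than at day 1 for 8 of the 10 genes in a test of that difference itself (edgeR, 3.53% of all genes called higher). It was 4.09 ± 0.93 on the log2 scale for P4ha3 (adjusted p = 0.0180), 1.99 ± 0.22 for P4ha2 (adjusted p = 5.5e-05), 1.82 ± 0.25 for Plod2 and 1.29 ± 0.22 for Plod1. P4ha1, P3h1, Crtap and Serpinh1 had differences of 0.88, 1.12, 0.97 and 1.13. Plod3, at 0.89 ± 0.25, and Fkbp10, at 1.31 ± 0.37, had adjusted p-values of 0.0567 and 0.0551. The count rested on single libraries: it fell to 4 without day 1 injured replicate 1, day 1 contralateral replicate 3 or day 7 injured replicate 3, and to 5 without day 7 contralateral replicate 2 or 3. Leaving out any of the former 3 libraries also lost the call of P4ha3, and its difference was 2.83 without day 1 contralateral replicate 3 (adjusted p = 0.114). In the same test with all libraries, 5 of 8 fibroblast (median 1.07), 2 of 14 chondrocyte (-0.74) and 1 of 6 endothelial markers (0.47) were called higher. Called lower were 1 chondrocyte and 1 of 8 osteoblast markers (osteoblast median -0.97), beside 52 of all 21262 genes. No other marker was called, and adipocyte markers had a median of -2.34. The part of these cells was not tested.

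**Figure D3:**
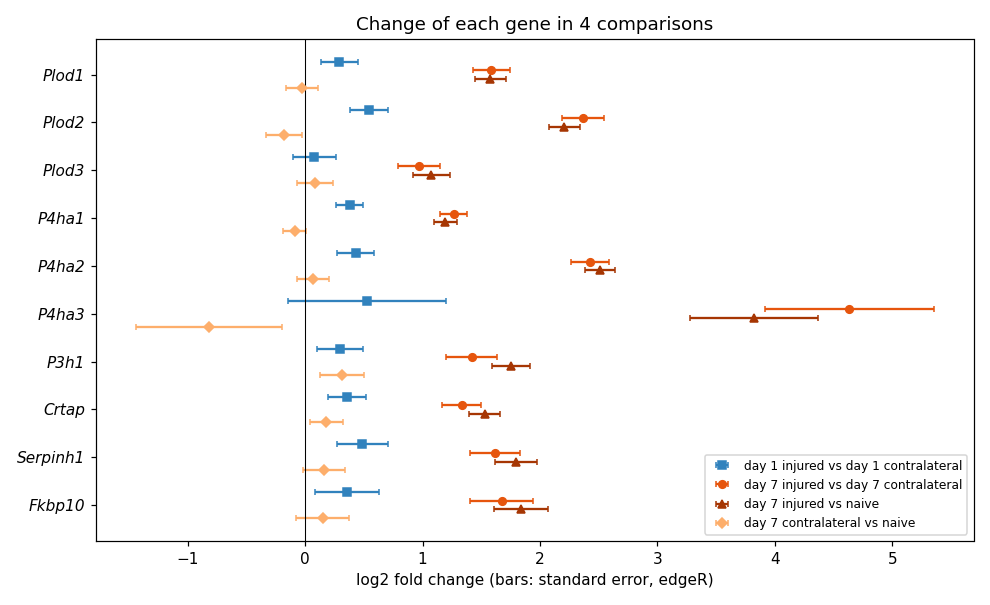
Log2 fold change of each gene (points, with standard errors from edgeR as bars) in 4 comparisons. The 2 comparisons of day 7 injured cartilage lie between 0.97 and 4.63, while day 1 injured against day 1 contralateral lies between 0.08 and 0.55 and day 7 contralateral against naive between -0.82 and 0.32.

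The transcripts were then compared within each gene, which asks whether a gene changed in the make-up of its RNA as well as in its level. The 10 genes have 66 transcripts in the files, of which 34 are annotated as protein-coding and 18 as retaining an intron, and 24 held at least 10% of their gene in some group mean. Plod2 is described first. Its protein-coding transcripts, Plod2-203 and Plod2-201, differ by a coding exon of 63 bases, exon 14 of Plod2-203, at chr9:92601985-92602047 (GRCm38, plus strand). Its length is a multiple of 3, so that the reading frame is the same with and without it. The exon is shown because it is the difference between these transcripts.

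Plod2 exon 14: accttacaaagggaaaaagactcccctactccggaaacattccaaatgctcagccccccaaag

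Plod2-203, with the exon, stood at 24.6, 35.4 and 50.1 TPM in day 7 injured cartilage, at 1.38, 8.17 and 7.97 TPM in the other knee and at 5.60 to 10.5 TPM in naive cartilage. Plod2-201, without it, stood at 2.69, 4.50 and 4.32 TPM in day 7 injured, 0.909, 3.93 and 3.76 TPM in the other knee and 2.12 to 4.72 TPM in naive cartilage. The form with the exon was thus above all other libraries. For the form without it the result depended on the scale, because TPM are not rescaled between libraries. In TPM its injured values lay within the naive range, but in CPM they were 26.3, 37.3 and 32.8 against 14.5 to 33.2 in naive cartilage, so that 1 injured library was above that range. In CPM the form with the exon stood at 241, 295 and 381 against 39.6 to 67.7 in naive cartilage. In the other knee it stood at 24.8, 44.3 and 52.3 CPM. The lowest contralateral value of both forms, on both scales, was that of replicate 1, the library that stands apart. The Plod2 transcripts that retain an intron held 18.1% to 68.3% of the gene in day 7 contralateral and 17.8% to 29.5% in naive cartilage. Plod2-203 held 70.1%, 80.2% and 84.5% of the gene in injured and 40.0% to 61.3% in naive cartilage, and Plod2-201 held 7.68%, 10.2% and 7.30% against 13.7% to 33.7%. For neither share did the day 7 injured libraries overlap any other library.

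**Figure D4:**
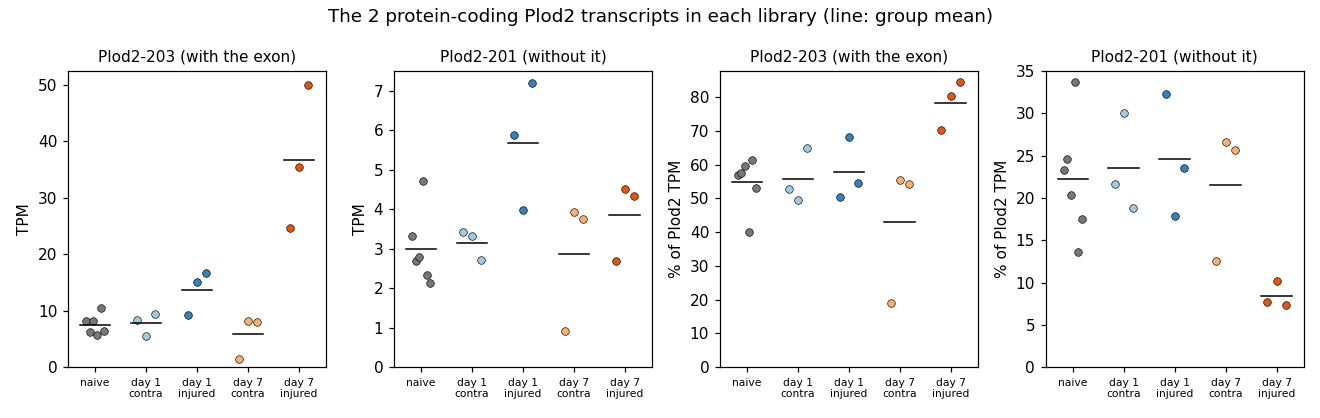
The protein-coding Plod2 transcripts with (Plod2-203) and without (Plod2-201) exon 14: level in TPM (left pair of panels) and share of the gene in percent (right pair), linear axes from 0, 1 point per library and a line at the group mean. Plod2-203 reaches 24.6 to 50.1 TPM at day 7 after injury while Plod2-201 lies between 2.69 and 4.50 TPM, on a scale that is not adjusted between libraries.

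The usage test compares the change of a transcript with that of its gene (diffSpliceDGE of edgeR). It called Plod2-201 lower relative to the gene, with a log2 usage difference of -1.56 against naive (edgeR adjusted p = 3.07e-05) and -1.73 against the contralateral knee (adjusted p = 9.76e-05), and did not call Plod2-203 (0.38 and 0.55, adjusted p = 0.466 and 0.632). It called 7 transcripts of the 10 genes of 43 tested against naive (3.1% of all 55261 transcripts called) and 4 of 45 against the contralateral knee (0.815%). Without contralateral replicate 1 it called 4 of 49 there, beside 324 of all 59685 transcripts. A second test, with limma on the log2 ratio of a transcript to the rest of its gene, called 8 against naive (3.91%) and 5 against the contralateral knee (0.221%). That test also called Plod2-203 higher, by 1.82 against naive (limma adjusted p = 0.0162) and by 2.37 against the other knee (adjusted p = 0.0353). It was added after the data were seen, because on simulated counts diffSpliceDGE also called transcripts that had not been changed, and only transcripts called by both tests are described as changed.

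Called by both tests in both comparisons were Plod2-201, Plod1-204 and P4ha2-210. Plod1-204 and P4ha2-210 are annotated as retaining an intron, and both became a smaller share of their gene. Plod1-204 held 3.75% to 5.78% of Plod1 in naive, 3.29% to 4.86% in the other knee and 1.01% to 1.33% in day 7 injured cartilage, and P4ha2-210 held 4.55% to 10.1%, 3.04% to 6.77% and 1.03% to 1.12% of P4ha2. The mean levels were 0.454 TPM in naive and 0.253 TPM in day 7 injured cartilage for Plod1-204, and 0.305 and 0.215 TPM for P4ha2-210. Because TPM are not rescaled between libraries, these means do not show whether the levels themselves fell. Both tests also called P4ha2-204 and Plod2-205, which retain an intron, lower against naive, and Fkbp10-202 higher. Fkbp10-202 had 10.7, 64.1 and 260 estimated counts in the day 7 injured libraries, so that a single library held most of them. Reads that fit several transcripts are divided by the quantification, so these values are weaker measurements than the sums per gene.

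P4ha1 has 2 forms that carry alternative versions of exon 9, and their balance was not called changed. P4ha1-203 held 68.2% to 84.5% of the gene in naive and 73.6% to 78.5% in day 7 injured cartilage, and P4ha1-201 held 15.5% to 23.6% and 12.8% to 17.1%.

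Promoter windows from RefSeq (GRCm38.p6, 250 bases before to 50 after the start) were at hand for 8 of the 10 genes, 9 windows in all, and those of Plod2 and Fkbp10 were not analysed here. They were searched on both strands for ACGTG and GCGTG, the usual cores of sites of the hypoxia-inducible factors, because P4ha1, P4ha2 and Plod2 are known hypoxia-inducible genes. The patterns share the letters CGTG. ACGTG stood in 5 of the 9 windows (P3h1, Plod3, Serpinh1, P4ha1 and P4ha2), against 19.6% of all 32851 windows, and GCGTG in 6 of 9 (P3h1, Plod1, Plod3, Crtap, P4ha1 and P4ha2) against 32.4%. The endoplasmic reticulum stress element, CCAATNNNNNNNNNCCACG, was in none of the 9 and in 0.119% of all windows. The heat shock pattern GAANNTTC was in 1, Plod1, and in 7.86% of all. The windows were not matched for base composition. For the prolyl 4-hydroxylase subunits with matches of both kinds, the 130 bases before the start are shown, with ACGTG and GCGTG in capitals, or CACGT and CACGC where they stand on the opposite strand. They lie at chr10:59323166-59323295 for P4ha1 and chr11:54100794-54100923 for P4ha2, plus strand.

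P4ha1: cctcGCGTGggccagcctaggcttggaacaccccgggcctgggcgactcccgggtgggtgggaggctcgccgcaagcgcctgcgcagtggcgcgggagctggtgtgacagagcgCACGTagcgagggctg
P4ha2: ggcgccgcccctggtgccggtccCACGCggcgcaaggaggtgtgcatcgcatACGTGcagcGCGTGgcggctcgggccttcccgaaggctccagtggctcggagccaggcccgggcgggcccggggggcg

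Hypoxia-inducible genes outside collagen processing were listed as well. Against naive cartilage 3 of 16 were called higher by edgeR, beside 10.4% of all genes, and 13 had positive log2 fold changes (median 0.28). An unadjusted p under 0.05 was found for 9, and for 8679 of all 21129 genes. Against the contralateral knee 0 were called by edgeR (9.33% of all genes called higher), or 2 without contralateral replicate 1. There 12 were positive (median 0.30) and 5 had an unadjusted p under 0.05, as had 6629 of all 21262 genes. The 3 called against naive were Hilpda, which encodes a lipid droplet protein (0.87), Higd1a, which encodes a mitochondrial protein (0.81), and the glucose transporter gene Slc2a1 (0.62). Vegfa and Pgk1, also listed, had log2 fold changes of 0.27 and 0.10 against naive with edgeR adjusted p-values of 0.326 and 0.508.

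Most other procollagen-modifying and -folding genes of the endoplasmic reticulum rose too. Of 12 listed, 10 were called higher against naive cartilage (10.4% of all genes) and 10 against the contralateral knee (9.33%), with a median log2 fold change of 1.22 against naive. The largest changes were those of Fkbp7, a prolyl isomerase of the Fkbp10 family (2.22 ± 0.13), P3h4, which encodes a partner of lysyl hydroxylase 1 (2.06 ± 0.15), and P3h3, a prolyl 3-hydroxylase relative in the same complex (2.02 ± 0.10). Fkbp14 had a log2 fold change of 1.86 ± 0.16, from a median of 14.7 CPM in naive to 50.1, 50.4 and 57.7 CPM in injured cartilage. Colgalt1, which adds galactose to hydroxylysine, had one of 1.04 ± 0.12, while its paralogue Colgalt2, at -0.13, and the channel gene Tmem38b, at -0.19, were not called (edgeR adjusted p = 0.708 and 0.123).

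Of 13 genes for procollagen export from the endoplasmic reticulum, 9 were called higher against naive cartilage (median 0.94), beside 10.4% of all genes. Against the contralateral knee 9 were called higher (9.33% of all genes) and 1 lower (3.23% of all genes called lower), Klhl12 (-0.77), which was not called without contralateral replicate 1. Those called against naive were led by the retrieval receptor gene Kdelr3 (2.11 ± 0.21), the transcription factor gene Creb3l1 (1.49 ± 0.20) and Sec24d, part of the COPII coat (1.39 ± 0.16). Mia3, which encodes TANGO1, the receptor that loads procollagen, rose by 0.71 ± 0.08. General chaperones and disulfide isomerases share the same compartment. Of 16, 4 were called higher against naive (median 0.45), beside 10.4% of all genes, and 3 against the contralateral knee (median 0.24), beside 9.33%. The 3 largest were those of the disulfide isomerases Pdia5 (1.55 ± 0.15), Pdia4 (0.74 ± 0.12) and Pdia3 (0.67 ± 0.12). Hspa5, which encodes BiP, the main chaperone of this compartment, stood at 331 to 472 CPM in naive and 537, 591 and 601 CPM in injured cartilage, and its log2 fold change of 0.48 ± 0.13 (edgeR adjusted p = 0.010) was below the fold limit.

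Most of the clients rose. Of 11 fibril-forming collagen chains, 8 were called higher against naive cartilage (median 1.91), beside 10.4% of all genes. They were led by Col3a1 (3.65 ± 0.27), Col5a1 (3.25 ± 0.15) and Col5a2 (2.87 ± 0.17), the chains of type III and type V collagen. Col1a1, of type I collagen, went from 8545 to 16729 CPM in naive to 46982, 51090 and 54701 CPM in injured cartilage, a log2 fold change of 2.05 ± 0.25 (edgeR adjusted p = 1.72e-05). Col2a1, of the type II collagen of cartilage, was at 2595 to 4989 CPM in naive and 3611 to 4116 CPM in injured cartilage, and was not called (0.25 ± 0.20, adjusted p = 0.358). Against the contralateral knee 5 chains were called (9.33% of all genes), and Col1a1 was not (0.77 ± 0.39, adjusted p = 0.188). Contralateral replicate 1 had 52440 CPM of Col1a1, against 15476 and 21550 in the other two libraries, and without it Col1a1 was called (1.48 ± 0.34, adjusted p = 0.00609), as were 7 of the 11 chains. The median of the 11 chains was 0.75 with that library and 1.33 without it, beside 1.60 and 1.70 for the 10 hydroxylase and helper genes, all of which were called with and without it.

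All 5 lysyl oxidases, which make the cross-links from lysine and hydroxylysine outside the cell, were called higher against naive cartilage: Loxl2 by 2.88 ± 0.18, Lox by 2.27 ± 0.38, Loxl3 by 1.92 ± 0.24, Loxl1 by 1.81 ± 0.25 and Loxl4 by 0.79 ± 0.24. Against the contralateral knee 4 were called (9.33% of all genes called higher), without Loxl4. Of 10 prolyl and lysyl hydroxylases and related dioxygenases that do not act on procollagen, none was called by edgeR against naive (median 0.06), with 1 at an unadjusted p under 0.05. Of all genes 10.4% were called higher, and the lists were not tested against each other. Egln1, the main oxygen-sensing prolyl hydroxylase, had 0.30 ± 0.13 (adjusted p = 0.103), and Egln3 had -0.43 ± 0.23 (adjusted p = 0.170). Against the contralateral knee 1 of these 10 was called lower (3.23% of all genes), the ribosomal oxygenase gene Riox1 (-0.62), and none without contralateral replicate 1.

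**Figure D5:**
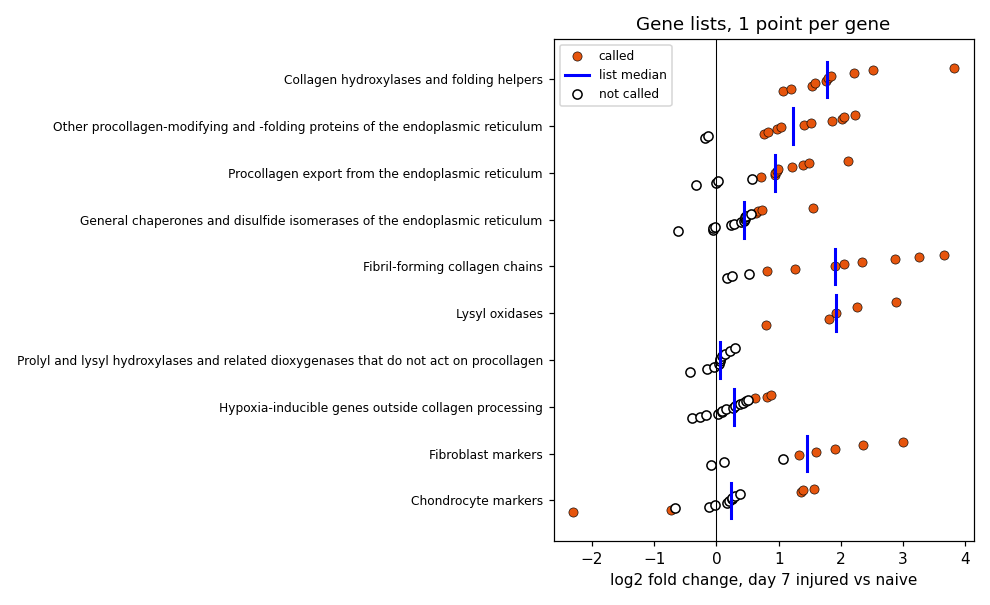
Log2 fold change of each gene of 10 lists in day 7 injured against naive cartilage, with 1 point per gene, filled where called, and a blue line at the list median. The medians are 1.77 for the collagen hydroxylases and helpers, 1.91 for the fibril-forming collagens, 1.92 for the lysyl oxidases and 0.06 for dioxygenases that do not act on procollagen.

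Markers of other cells were measured beside these results, since the libraries are of tissue in which fewer cells of a type and less RNA per cell cannot be told apart. The labels give the cell type as chondrocyte. All 14 chondrocyte markers were above the filter, and their summed level was 627 to 1250 TPM in naive and 688 to 948 TPM in day 7 injured cartilage, with Col2a1 the most abundant (means of 356 and 335 TPM). Against naive 3 of the 14 were called higher, Acan (1.57), Comp (1.39) and Sox9 (1.36), beside 10.4% of all genes. Called lower were 2, Cytl1 (-2.31) and Chad (-0.73), where 6.11% of all genes were called lower. Erythroid markers, led by Hbb-bs, summed to 30712 to 49500 TPM in naive and 17039 to 21011 TPM in day 7 injured cartilage, far above the chondrocyte markers. Of 6 erythroid markers 3 were called lower, beside 6.11% of all genes, among them Alas2 (-0.73) and Hba-a1 (-0.62). Hbb-bs (-0.59), Hba-a2 (-0.58) and Hbb-bt (-0.56) were not. Neutrophil and marrow myeloid markers, led by S100a8, summed to 8658 to 13366 TPM in naive and 5670 to 6123 TPM in day 7 injured cartilage, with S100a8 (-0.67) and S100a9 (-0.63) called lower of 7. The part of these cells in the results was not tested.

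Of 8 fibroblast markers, 5 rose along with the 10 genes. The summed level of the 8 was 60.0 to 96.8 TPM in naive, 64.5 to 147 TPM in day 1 injured, 36.5 to 91.2 TPM in day 7 contralateral and 159, 207 and 240 TPM in day 7 injured cartilage. TPM are not rescaled between libraries. In day 1 injured against naive cartilage 5 of the 8 had positive log2 fold changes (median 0.06), none with an unadjusted p under 0.05 (edgeR). The day 7 injured libraries were the highest of all in summed TPM. Those called higher against naive (10.4% of all genes) were 5 (Col14a1 by 2.99, Dpt by 2.35, Thy1 by 1.91, Cd248 by 1.59 and Pdgfra by 1.32) and none was called lower, with Dpt the most abundant (means of 16.3 TPM in naive and 68.0 TPM in day 7 injured cartilage). No marker of the list was at 0 in all libraries. Clec3b, Pi16 and Dpp4 were not called, with log2 fold changes of 1.07, 0.11 and -0.08 (edgeR adjusted p = 0.226, 0.458 and 0.714). The part of fibroblasts in the rise of the 10 genes was not tested.

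The remaining marker lists were compared with naive cartilage, where 10.4% of all genes were called higher and 6.11% lower. Called higher were 3 of 6 endothelial markers (median 0.62), Emcn (1.04), Cdh5 (0.74) and Pecam1 (0.71). Tek (0.52), Kdr (0.44) and Vwf (-0.37) were not called. Of 5 osteoclast markers 1 was called higher, Ctsk (1.25), while Oscar (0.63), Atp6v0d2 (0.52), Acp5 (0.50) and Ocstamp (0.16) were not called. Of 8 osteoblast and osteocyte markers 1 was called higher, Ibsp (0.69), and 1 lower, Mepe (-0.61). Adipocyte markers had a median of -1.58, with Lep (-1.85), Cidec (-1.75) and Cfd (-1.58) called lower, and Plin1 (-1.22) and Adipoq (-0.75) not called. None of 8 macrophage markers and none of 6 skeletal muscle markers was called by edgeR, with 4 and 2 at an unadjusted p under 0.05. The muscle markers ran from -1.06 for Acta1 through Mylpf (-0.90), Myh4 (-0.77), Ckm (-0.74) and Tnnt3 (-0.66) to -0.46 for Tnnc2. The summed adipocyte level was 53.4 to 81.8 TPM in day 7 injured and 106 to 371 TPM in naive cartilage. Summed muscle markers stood at 583 to 1149 TPM in day 7 injured and 1012 to 3148 TPM in naive cartilage. Macrophage markers stood at 798 to 831 and 908 to 1163 TPM, beside 627 to 1250 TPM for chondrocyte markers in naive cartilage.

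Over all 18 libraries the 10 genes followed each other closely, with Pearson correlations of log2 CPM between 0.88 and 0.99 for the 45 pairs (median 0.95). Among the 15 libraries other than day 7 injured the correlations ran from 0.22 for Plod2 with Plod3 to 0.93 for P3h1 with Crtap (median 0.68), which is a description, as these points share library make-up. P3h1 and Crtap were thus the closest pair in both sets. The 5 other genes whose log2 CPM followed the mean standardised level of the 10 most closely over the 18 libraries were Fkbp14, Ppfibp1, Srpx2, Tmem45a and Ptgfrn (Pearson r of 0.988 to 0.990 among 21252 genes). Of these, Fkbp14 went from a mean of 14.7 CPM in naive to 52.7 CPM in day 7 injured cartilage and Srpx2, which encodes a secreted sushi-repeat protein, from 17.7 to 112 CPM.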

How the data were processed

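Libraries were made with a stranded total RNA kit after depletion of ribosomal RNA. The authors trimmed reads with Trimmomatic 0.39 and deposited, per transcript, expected counts (Kallisto 0.46.1 estimated counts), TPM and effective lengths. The study's methods name a GRCm38 transcriptome of release 103 and the labels' processing notes GRCh38. Of 137436 transcripts, 98.3% matched a GENCODE vM21 (GRCm38) transcript, from which all gene names and coordinates were taken. The version number was 1 higher in the files for 130907 of them, which leaves the release used uncertain, and 0.667% to 3.90% of the counts of a library were in unmatched transcripts. Ero1a and Ero1b were matched through synonyms.

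Estimated counts were summed per gene, rounded and tested in edgeR 4.0.16 (R 4.3.3): filterByExpr, TMM, quasi-likelihood F test, Benjamini-Hochberg adjustment over all genes tested. Fits used 18 libraries (21262 genes) where a comparison involved the contralateral knee of day 7, and otherwise the remaining 15 (21129 genes). The study's limma-voom fit with pools as a block could not be repeated, since the labels pair no libraries. Transcripts were tested with diffSpliceDGE using transcript-wise dispersions, and with limma 3.58.1 on log2 ratios (0.5 added to both counts). DESeq2 1.42.0, limma-voom, other scalings and filters and leaving out each replicate were alternatives. The log2 ratio test, and the lists without contralateral replicate 1, were added after the data were seen. On simulated data diffSpliceDGE also called unchanged transcripts. CPM used TMM factors over 18 libraries, which also scaled the CPM of the Plod2 transcripts (added after the data were seen), and for the correlations a prior count of 2 was added before taking log2. Levels between genes are TPM, which were not rescaled between libraries.

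Described in every comparison were the 10 genes, and of other lists the counts, the median, the largest called changes against naive (at most 3 in each direction), all genes of lists of up to 6 (except 1, not reported here), and 7 fixed genes. The members and lists were chosen with earlier results of these data known. Replicates were numbered in accession order. Outside this rule, Mia3, Egln1, Egln3, Vegfa, Pgk1, Colgalt2, Tmem38b, Klhl12, Riox1, Cd248, Pdgfra, Clec3b, Dpp4 and Pi16 were named after their values were seen. Low counts, as of P4ha3, are less precise.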

Additional observations from a re-analysis of the deposited data

Results flagged for a closer look

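In the naive group P4ha3 was far higher in replicate 5, at 8.91 CPM, than in the 5 other libraries, and the share of P4ha2-210 in its gene was highest in replicate 1, at 10.1%. Of 16 such checks of the 6 naive libraries 2 stood out, where chance flags about 1 in 20.

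The difference between injured and contralateral cartilage was larger at day 7 than at day 1 for 8 genes by an edgeR test of that difference (adjusted p of at most 0.05), beside 3.53% of all genes. The count was 4 to 10 when 1 library was left out, and 4 without day 1 injured replicate 1, day 1 contralateral replicate 3 or day 7 injured replicate 3. On the log2 scale it was 1.29 for Plod1, 1.82 for Plod2, 0.88 for P4ha1, 1.99 for P4ha2, 4.09 for P4ha3, 1.12 for P3h1, 0.97 for Crtap and 1.13 for Serpinh1.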

How the results depend on the processing

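The calls of the 10 genes in day 7 injured against naive, contralateral and day 1 injured cartilage, and the absence of calls in the other comparisons of groups, were the same under every alternative run. All 150 alternative log2 fold changes against naive kept direction and call. The larger difference between knees at day 7 was called for 8 genes, for 4 at an adjusted p of at most 0.01, and for 4 to 10 when 1 library was left out. The cause was not tested. No paired analysis was possible because the labels tie no injured library to a contralateral one. Usage calls numbered 5 to 8 against naive and 3 to 5 against the contralateral knee. Small groups (3 libraries), low counts of P4ha3 and reads shared between transcripts limit precision.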
